A study of Mus musculus with 19 samples.

Results

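Primary myoblasts are muscle precursor cells taken from muscle and grown in culture. The comparison described here sets 3 libraries of WT-labelled differentiated myotubes against 3 libraries of WT-labelled proliferating myoblasts, which are 6 of the 19 libraries in the series, and asks which messenger RNAs changed as the cells left the cell cycle and began to make muscle. Both groups were chosen by their genotype and stage labels. The myoblasts carried a time point of 24 h and the differentiated myotubes one of 48 h, and both came from mouse cells labelled primary myoblasts. Stage and time in culture therefore cannot be told apart. The labels give no strain, sex, age or number of animals, and they do not say whether the numbered biological replicates were separate animals or cultures, so p-values measure only the spread between these libraries. The other libraries carried the WT label after fusion or a Glud1-deficient label. They entered the filter on low counts, the scaling, the shared estimate of the spread and the differences between genotype labels. The deposited file names mark the WT-labelled libraries KO and the Glud1-deficient ones KOT, so they separate the same groups. What these marks mean is not stated, and the labels were followed. Glud1, which encodes mitochondrial glutamate dehydrogenase, was present at both stages, at 192, 191 and 184 CPM in the myoblast libraries and at 112, 102 and 104 CPM in the differentiated ones.

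Skeletal muscle forms when precursor cells stop dividing, switch on the myogenic regulatory factors Myod1 and Myog with their Mef2 partners, fuse, and assemble sarcomeres, the repeating units of actin thin filaments and myosin thick filaments that shorten during contraction. In dividing cells, cyclin-dependent kinases inactivate the retinoblastoma proteins and release E2F factors, which drive the genes of DNA replication. Genes of mitosis are driven later in the cycle through promoter elements known as CHR (cell cycle genes homology region) and CCAAT boxes, bound by the MuvB and NF-Y complexes. When cells stop dividing, MuvB joins p130 or p107 in the DREAM complex, which silences these promoters. Muscle genes are switched on through E boxes, the letters CANNTG, which myogenic regulatory factors bind.

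Levels are given as CPM, which are estimated counts scaled to a common library size with TMM factors, and changes as log2 fold changes, differentiated minus myoblast, with ± giving the standard error (SE). A gene is said to rise or fall only where its adjusted p was under 0.05 in edgeR's quasi-likelihood fit, with p-values adjusted by the Benjamini-Hochberg method across 15123 genes. The 222 genes named here that passed had adjusted p-values of at most 0.0421, and 221 of them had libraries that did not overlap between the groups. The background to every count below was high. Of all genes tested, 12852 (85%) passed, 6407 higher (42.4%) and 6445 lower (42.6%). With a change of at least 2-fold as well, 6993 passed (46.2%), 3657 higher (24.2%) and 3336 lower (22.1%). The libraries of the 2 groups did not overlap in 12876 genes (85.1%). The 6 libraries held 19984984 to 29896572 estimated counts each. In a bulk sample, fewer cells of a type and less RNA per cell cannot be told apart. Scaling by library size alone in place of TMM shifted the median change of all genes by -0.25 and turned the split of calls to 5205 higher against 7671 lower, so a small change is relative to the scaling.

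The list with the largest median change was that of cell division. All 70 genes of a mitosis list passed the filter on low counts, and all 70 were at least 2-fold lower in differentiated myotubes, against 22.1% of all genes. Their median change was -5.21, against 0.02 over all genes tested. Together these genes held 0.708%, 0.725% and 0.700% of the counts in myoblast libraries and 0.0285%, 0.0260% and 0.0278% in differentiated ones. Cdk1 (ENSMUSG00000019942.13, chromosome 10, 69335146 to 69352938 of GRCm38), the kinase that starts mitosis, was at 234, 228 and 223 CPM in myoblasts and 7.02, 5.75 and 6.06 CPM in differentiated myotubes. The groups were far apart, and the change was -5.19 ± 0.060 (adjusted p = 2.44e-30 by edgeR). Its partners Ccnb1 and Ccnb2, the B-type cyclins, fell by 5.84 ± 0.075 and 5.22 ± 0.093 on the log2 scale. Top2a, the topoisomerase that untangles sister chromosomes and the list member with the most CPM in myoblasts, was at 394, 404 and 381 CPM in myoblasts and 7.64, 6.10 and 8.66 CPM in differentiated myotubes.

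The members with the largest falls were Sgo1 and Nuf2, both at the centromere or kinetochore, where chromosomes are held and pulled apart. Sgo1, which protects cohesion at the centromere until anaphase, was at 33.0, 32.5 and 30.5 CPM in the myoblast libraries and at 0.427, 0.479 and 0.317 CPM in the differentiated ones, a change of -6.30 ± 0.13. Nuf2, part of the Ndc80 complex that holds microtubules, was at 74.3, 75.5 and 74.1 CPM in myoblasts and 0.806, 0.871 and 1.20 CPM in differentiated myotubes, a change of -6.24 ± 0.097. Aurkb, Bub1, Plk1 and Ttk, the kinases that check and drive chromosome segregation, fell by 5.93, 5.83, 5.58 and 5.62. The motor proteins Kif23, Kif11 and Kif2c fell by 5.86, 5.21 and 5.65, and the condensin subunit Ncapg by 5.88. The smallest falls were in Pttg1, the securin that restrains separase, and Bub3, a checkpoint protein, which fell by 1.19 and 1.21 and remained at 5.65 and 53.3 CPM.

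Promoter sequences are shown because mitotic genes moved together. The windows come from RefSeq on GRCm38.p6 and run from 250 bases before to 50 bases after each annotated start. Of the 70 mitosis genes, 60 matched by symbol, with 65 promoters. The CHR letters TTTGAA, searched on both strands, were found in 46 of these (70.8%), against 17.9% of all 32851 promoters in the table. CCAAT, on both strands, was found in 48 (73.8%), against 37.4% of all. Both were found in 39 (60%), against 6.95% of all. CHR letters beginning within 50 bases of the start were found in 40 of 65 mitosis promoters (61.5%) and in 1624 of all promoters (4.94%), as the plot of CHR position shows. The mean GC content was 58.6% in the mitosis windows and 53.8% in all. These shares are descriptions of letters, and a match is not a shown binding site.
The 3 promoters that follow are read 5′ to 3′ on the gene's strand up to 25 bases after the start, with CHR and CCAAT letters of either strand in capitals. Cdk1 and Ccnb2 were chosen, after values were seen, as the kinase and cyclin of mitotic entry, and Sgo1 as the member with the largest fall.
Cdk1, chr10:69352888-69353162, minus strand: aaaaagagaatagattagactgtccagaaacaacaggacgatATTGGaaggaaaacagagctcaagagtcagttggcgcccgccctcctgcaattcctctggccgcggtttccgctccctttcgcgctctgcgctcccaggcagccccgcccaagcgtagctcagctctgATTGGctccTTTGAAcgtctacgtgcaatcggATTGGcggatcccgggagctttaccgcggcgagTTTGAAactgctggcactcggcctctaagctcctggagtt
Ccnb2, chr9:70421530-70421804, minus strand: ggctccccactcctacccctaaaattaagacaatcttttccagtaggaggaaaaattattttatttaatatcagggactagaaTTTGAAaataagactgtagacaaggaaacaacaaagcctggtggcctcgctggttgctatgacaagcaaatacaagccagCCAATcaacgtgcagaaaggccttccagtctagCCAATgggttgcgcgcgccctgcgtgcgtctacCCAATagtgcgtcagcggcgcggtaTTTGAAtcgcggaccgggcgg
Sgo1, chr17:53689291-53689565, minus strand: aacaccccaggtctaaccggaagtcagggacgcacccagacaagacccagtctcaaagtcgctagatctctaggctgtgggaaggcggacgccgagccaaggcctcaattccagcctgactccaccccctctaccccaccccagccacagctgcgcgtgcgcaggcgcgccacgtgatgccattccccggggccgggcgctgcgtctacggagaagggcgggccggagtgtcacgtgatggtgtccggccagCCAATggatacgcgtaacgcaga
The Cdk1 and Ccnb2 windows each held 2 CHR matches and 3 CCAAT matches. The Sgo1 window held 1 CCAAT match and no CHR letters. The window of Nuf2 held none of the 3 motifs searched.

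**Figure D1:**
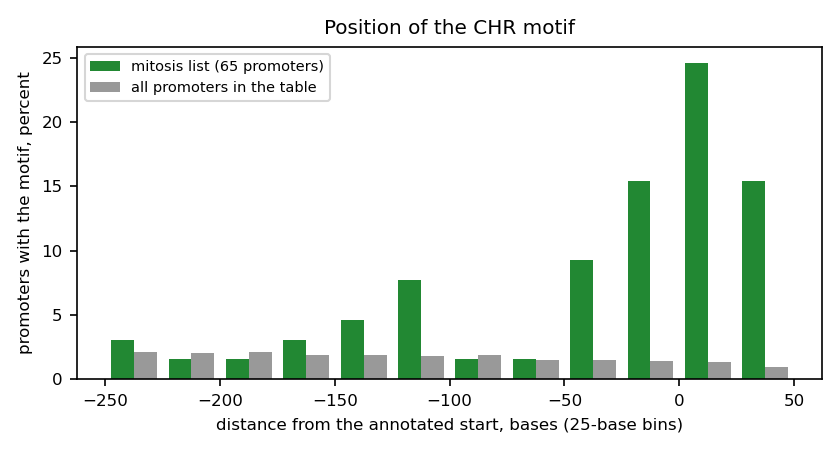
Share of promoters (y axis, percent) with the CHR letters TTTGAA, on either strand, beginning in each 25-base bin of distance from the annotated start (x axis, bases), for 65 promoters of mitosis genes and for all 32851 promoters. Within 50 bases of the start, 61.5% of mitosis promoters and 4.94% of all promoters held the letters.

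DNA replication genes fell with a wider range. All 53 listed genes were tested and fell, 52 of them at least 2-fold, against 22.1% of all genes, with a median of -3.85. The list held 0.46%, 0.456% and 0.455% of the counts in myoblast libraries and 0.0607%, 0.0576% and 0.0584% in differentiated ones. Chaf1b, a subunit of the histone chaperone that follows the replication fork, was at 38.3, 37.3 and 37.5 CPM in myoblasts and 0.427, 0.697 and 0.387 CPM in differentiated myotubes, a change of -6.23 ± 0.12. Mcm3, part of the replicative helicase, was at 124, 124 and 122 CPM in the myoblast libraries and at 2.18, 1.61 and 1.83 CPM in the differentiated ones, a change of -6.05 ± 0.077. The loading factors Cdc6 and Orc1 fell by 5.87 and 5.65, and Pcna, the sliding clamp, by 3.36. Members of 1 complex did not move alike. Within the helicase, Mcm3 and Mcm6 fell by 6.05 and 5.53 and Mcm2 by 3.07. Within the GINS complex, Gins1 fell by 4.78 and Gins4 by 1.31. In ribonucleotide reductase, which makes deoxynucleotides, the large subunit Rrm1 was at 260.1, 265 and 256 CPM in myoblasts and 221, 202 and 211 CPM in differentiated myotubes, a change of only -0.30 ± 0.038. The S-phase subunit Rrm2 fell by 2.99 ± 0.043. In the promoter windows of 42 replication genes, CHR letters were found in 17.3%, near the 17.9% of all promoters, and CCAAT in 57.7%.

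Among cyclins, kinases and E2F factors of G1 and S phase, 20 of 21 listed genes were tested (Mycn had too few counts). Of the 20, 17 fell (85%) and 3 rose (15%), against 42.6% and 42.4% of all genes. Ccnd1, the cyclin that links growth signals to Cdk4 and Cdk6, was at 1161, 1191 and 1193 CPM in myoblasts and 48.6, 39.4 and 42.3 CPM in differentiated myotubes, a change of -4.77 ± 0.065. Ccna2, the S-phase cyclin, fell by 5.87 ± 0.074 and Myc by 3.29 ± 0.075. The genes that rose were the cyclin Ccnd3, the kinase Cdk2 and the activator E2f2. Ccnd3 was at 367, 352 and 397 CPM in the myoblast libraries and at 881, 847 and 894 CPM in the differentiated ones, a change of 1.23 ± 0.045. E2f2 was at 23.5, 21.4 and 23.3 CPM in myoblasts and 119.7, 133 and 129 CPM in differentiated myotubes, a change of 2.48 ± 0.060, while E2f1 fell by 1.76 ± 0.066.

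Brakes on the cell cycle included genes that rose and genes that fell. Of 30 genes, all tested, 16 rose and 12 fell, 7 and 4 of them at least 2-fold, and the median of 0.21 turned to -0.044 with library-size scaling. The shares, 53.3% and 40%, compare with 42.4% and 42.6% of all genes. Cdkn1a, the kinase inhibitor p21, was at 531, 503 and 519.8 CPM in myoblasts and 3017, 3020.4 and 3189 CPM in differentiated myotubes, a change of 2.57 ± 0.046. Rb1, the retinoblastoma protein, was at 44.7, 48.4 and 43.1 CPM in the myoblast libraries and at 287, 294 and 299 CPM in the differentiated ones, a change of 2.70 ± 0.047. Cdkn1c, the inhibitor p57, rose by 3.40 ± 0.15 but reached only 7.84 CPM. The 3 pocket proteins went separate ways: Rbl1, which encodes p107, fell by 3.96 ± 0.079, and Rbl2, which encodes p130, had a small change of -0.14 ± 0.062 that no longer passed under 11 of 14 alternative settings. Trp53, the p53 gene, fell from 174, 173 and 187 CPM to 45.9, 44.6 and 47.4 CPM. Among MuvB subunits, Lin9 fell by 2.45 ± 0.11 and Lin37 rose by 0.56 ± 0.091.

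**Figure D2:**
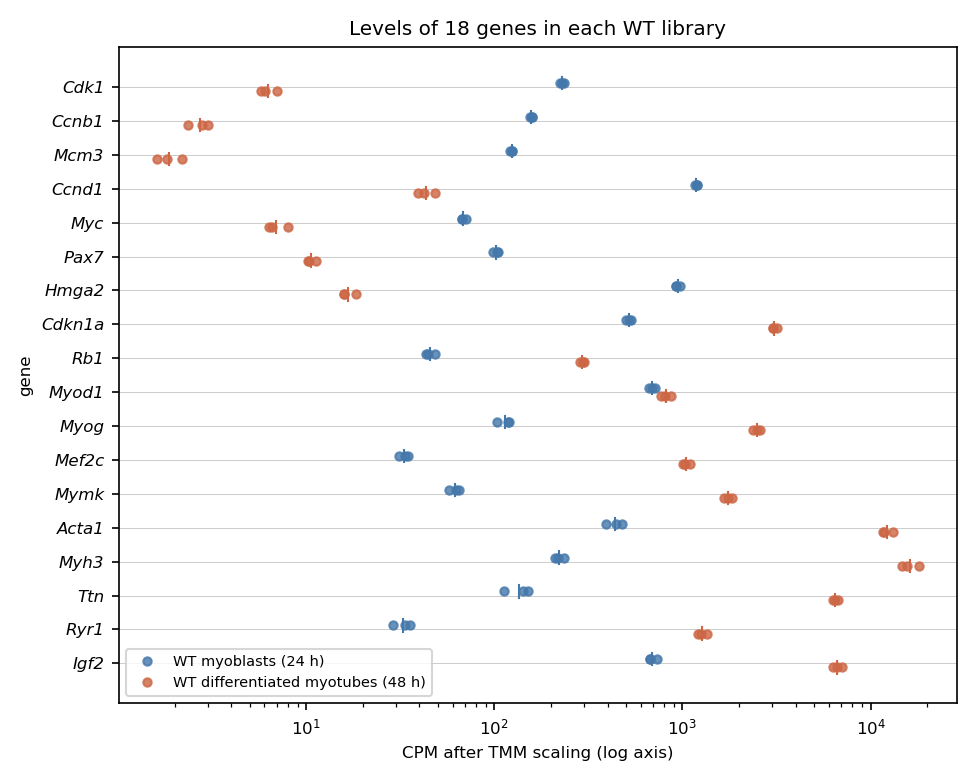
CPM per library (x axis, log scale) of 18 genes (y axis) in the 3 WT myoblast and 3 WT differentiated libraries, 1 point per library with the group mean as a short line. Cdk1 lies between 223 and 234 CPM in myoblasts and between 5.75 and 7.02 CPM in differentiated myotubes, while Acta1, Ttn and Ryr1 lie higher in differentiated myotubes.

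Transcripts of the replication-dependent histones, which package new DNA and whose messengers normally end without a poly(A) tail, were counted in libraries selected for poly(A). Of 67 such genes, 28 passed the filter on low counts. Of those, 22 rose and 2 fell, and since a low gene can pass through the group where it is high, this count is a description. The list held 0.00521%, 0.00497% and 0.00504% of the counts in myoblast libraries and 0.0343%, 0.0303% and 0.0294% in differentiated ones. Hist1h2bc was at 10.9, 10.5 and 10.3 CPM in myoblasts and 146, 128 and 124 CPM in differentiated myotubes, and Hist1h1c, a linker histone, at 14.8, 15.5 and 15.4 CPM in myoblasts and 115, 105 and 105 CPM in differentiated myotubes. Members of this family are nearly identical, so counts may be split between them and single members are uncertain. The summed level moved opposite to that of the replication genes above.

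Transcription factors of muscle included genes that rose and genes that fell. Of 31 listed factors and partners, 29 were tested, 17 rose, 15 of them at least 2-fold, and 10 fell, which is 58.6% and 34.5% against 42.4% and 42.6% of all genes. Among the myogenic regulatory factors, Myog rose by 4.44 ± 0.075. Myod1 was at 693, 661 and 719 CPM in the myoblast libraries and at 869, 769.8 and 804 CPM in the differentiated ones, a change of 0.24 ± 0.050 (adjusted p = 9.85e-05 by edgeR) that turned to -0.014 and did not pass with library-size scaling. Myf5, an early factor of precursors, was at 86.1, 81.0 and 82.5 CPM in myoblasts and 67.8, 63.5 and 58.5 CPM in differentiated myotubes, a change of -0.40 ± 0.047. Mef2c (ENSMUSG00000005583.16, chromosome 13, 83504034 to 83667080), a partner of the myogenic factors, was at 34.9, 31 and 33.5 CPM in myoblasts and 1029, 1098 and 1007 CPM in differentiated myotubes, a change of 4.98 ± 0.065 (adjusted p = 1.31e-29 by edgeR). Its relatives Mef2a and Mef2d rose by 1.28 ± 0.039 and 2.03 ± 0.051. Myf6, the late myogenic factor MRF4, was at 1.51, 1.64 and 1.77 CPM in the myoblast libraries and at 31.3, 29.0 and 31.5 CPM in the differentiated ones, a change of 4.21 ± 0.10. The Tead factors, which pair with Vgll or Yap cofactors, rose in both listed members, Tead4 by 3.12 ± 0.064 and Tead1 by 1.15 ± 0.058. The E proteins that pair with myogenic factors diverged. Tcf3, which encodes E12 and E47, was at 228, 222 and 239 CPM in myoblasts and 52.2, 45.9 and 48.7 CPM in differentiated myotubes, a change of -2.23 ± 0.054, and Tcf12 fell by 0.32 ± 0.037, while Tcf4 rose by 1.04 ± 0.036. Hmga1, an architectural chromatin protein of dividing cells, had the largest fall of the list, from 1206, 1215 and 1262 CPM to 34.6, 33.7 and 34.7 CPM.

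Genes of the progenitor state and inhibitors of myogenic factors fell more often than they rose. Of 44 genes, 40 were tested, 24 fell and 10 rose, which is 60% and 25% against 42.6% and 42.4% of all genes. By at least 2-fold, 18 fell and 5 rose, and the median was -0.76. Hmga2, which sustains precursor growth, was at 926, 971 and 929 CPM in myoblasts and 18.4, 15.9 and 15.8 CPM in differentiated myotubes, a change of -5.82 ± 0.076. The Id proteins, which trap E proteins, fell in 3 of 4 genes: Id2 by 2.05 ± 0.058, Id3 by 1.61 ± 0.049 and Id1 by 0.42 ± 0.060. Id4 did not pass the test, at 1.61 ± 0.356 CPM (SD, n = 3) in myoblasts and 2.14 ± 0.5 CPM (SD, n = 3) in differentiated myotubes, and passed as higher under 3 of 14 alternative settings. Met, the receptor for hepatocyte growth factor, and Vcam1, a surface marker of satellite cells, fell by 3.31 ± 0.048 and 3.65 ± 0.056. Notch signalling, which keeps precursors undifferentiated, was mixed. Hes1, a Notch target, fell by 1.87 ± 0.062, Notch2 by 0.59 ± 0.074, while Notch1 rose by 0.69 ± 0.061 and the ligand Dll1 by 1.26 ± 0.067. Spry1, an inhibitor of growth factor signalling in quiescent satellite cells, was at 12.7, 11.7 and 14.1 CPM in the myoblast libraries and at 63.3, 63.2 and 66.4 CPM in the differentiated ones. Itga7, the laminin receptor subunit of muscle, was the riser with the most CPM, at 689.7, 673 and 693 CPM in myoblasts and 2245, 2512 and 2607 CPM in differentiated myotubes.

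Fusion genes did not all rise. Of 37 genes of fusion and adhesion, 35 were tested, 19 rose and 14 fell, which is 54.3% and 40% against 42.4% and 42.6% of all genes, with a median of 0.52. Tmem182, a muscle membrane protein, was at 9.42, 9.34 and 11.1 CPM in myoblasts and 265, 280.0 and 288 CPM in differentiated myotubes, a change of 4.80 ± 0.074. Ncam1, a cell adhesion molecule of young myotubes, was at 191, 195 and 203 CPM in the myoblast libraries and at 1529, 1755 and 1808 CPM in the differentiated ones, a change of 3.11 ± 0.064. Cav3 and Bin1, which shape the muscle membrane and its T tubules, rose by 4.16 ± 0.069 and 2.69 ± 0.043. Kirrel, an adhesion receptor related to the fly fusion genes, was at 175, 182 and 179 CPM in myoblasts and 16.4, 16.5 and 18.2 CPM in differentiated myotubes, a change of -3.39 ± 0.049. Dock1, which activates Rac during fusion, fell by 2.88 ± 0.061, and the receptor Boc by 2.37 ± 0.12, while its relative Cdon rose by 0.57 ± 0.038.

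Among the lists, those of the sarcomere had the highest medians. Of 35 listed genes of the thick filament, M band and titin, 33 were tested (Myl3 and Mybpc3 had too few counts), and these rose by at least 2-fold, against 24.2% of all genes, with a median of 4.53. They held 0.196%, 0.188% and 0.206% of the counts in myoblast libraries and 5.10%, 5.08% and 5.44% in differentiated ones. The list also holds 10 chaperones and regulators, which are not filament proteins themselves: the small heat shock proteins Hspb1, Hspb2, Hspb3, Hspb7 and Hspb8, the assembly factors Unc45b and Smyd1, and the ubiquitin ligases Trim54, Trim55 and Trim63. Without these, all 23 tested members rose by at least 2-fold, with a median of 5.16, and held 0.159%, 0.154% and 0.170% of the counts in myoblast libraries and 4.86%, 4.86% and 5.21% in differentiated ones. Of 46 genes of the thin filament and Z disc, 45 were tested, 41 rose (91.1%) and 3 fell (6.67%), with a median of 4.33. Of all genes, 42.4% rose and 42.6% fell. These held 0.883%, 0.846% and 0.878% of the counts in myoblast libraries and 5.34%, 5.25% and 5.57% in differentiated ones. The SDs over libraries were small beside these differences, 0.202 percentage points for the thick filament and 0.163 for the thin filament in differentiated myotubes.

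Ttn, the giant spring that spans the sarcomere from Z disc to M band, was at 112, 142 and 151 CPM in myoblasts and 6711, 6285 and 6439 CPM in differentiated myotubes, a change of 5.59 ± 0.12. Myosin heavy chains of several fibre programs rose together. Myh8, the perinatal chain, was at 17.4, 17.9 and 20.7 CPM in the myoblast libraries and at 1618, 1688 and 1945 CPM in the differentiated ones, a change of 6.55 ± 0.083. Myh1, a fast adult chain, was at 65, 62.7 and 72.7 CPM in myoblasts and 4362, 4579 and 5289 CPM in differentiated myotubes, a change of 6.15 ± 0.073. Myh7, the slow chain, rose by 4.34 ± 0.083, Myh2 by 4.45 ± 0.17 and Myh4, the fastest adult chain, by 2.26 ± 0.20 to only 6.89 CPM. Per length, mean TPM (an abundance per transcript length) went from 5.81 to 493 for Myh8, from 22.1 to 1429 for Myh1, from 16.2 to 206 for Myh7 and from 0.251 to 4.43 for Myh2. Myh1, Myh2, Myh4 and Myh8 are neighbours with similar sequences, so reads may be shared between them and with other chains of the same cluster. Mylpf, a fast regulatory light chain, held 0.707% of differentiated counts and rose by 4.02 ± 0.075.

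In the thin filament, Acta1 (ENSMUSG00000031972.5, chromosome 8, 123891769 to 123894751), the skeletal actin, was at 444, 392 and 476 CPM in myoblasts and 11802, 11678 and 13185 CPM in differentiated myotubes, a change of 4.80 ± 0.083. Actc1, the cardiac actin that embryonic muscle also uses, was at 141, 130.4 and 149 CPM in the myoblast libraries and at 6399, 6345 and 6751 CPM in the differentiated ones, a change of 5.54 ± 0.080. Mean TPM went from 539 to 13756 for Acta1 and from 156 to 6746 for Actc1. Troponin subunits of slow, cardiac and fast type rose together: the slow Tnni1 by 5.01 ± 0.063, the cardiac Tnnt2 by 3.77 ± 0.052, and the fast Tnnt3 and Tnnc2 by 4.45 ± 0.060 and 5.13 ± 0.074. Ankrd2, a stretch-responsive protein linked to titin, was at 0.492, 0.303 and 0.434 CPM in myoblasts and 52.7, 55.6 and 59.0 CPM in differentiated myotubes, the largest change of the list at 7.05 ± 0.14. Against the direction of the list, Nebl, the non-skeletal relative of nebulin, was at 4.50, 4.71 and 5.35 CPM in myoblasts and 0.285, 0.522 and 0.317 CPM in differentiated myotubes, a change of -3.69 ± 0.27. Tpm3 fell by 1.73 ± 0.037, and Ankrd1, a YAP and stretch target, by 0.88 ± 0.038.

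**Figure D3:**
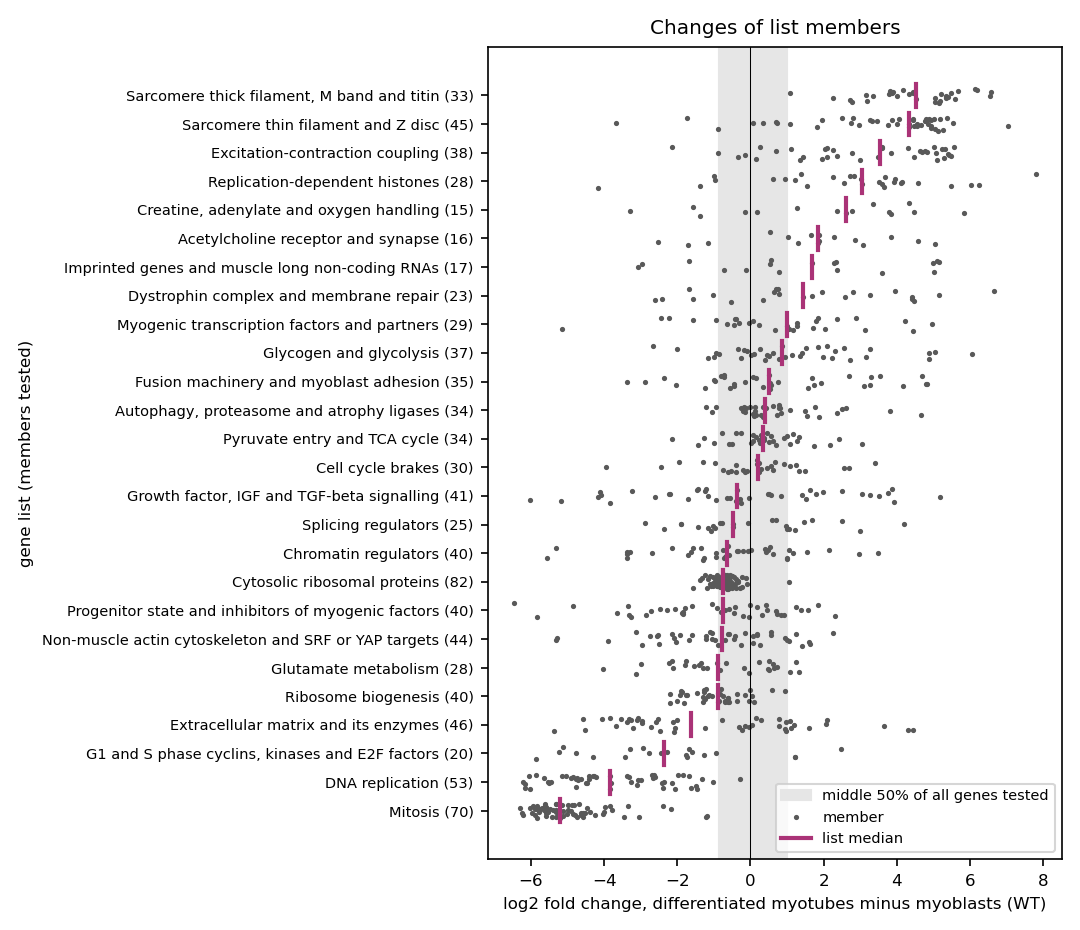
Log2 fold change, differentiated minus myoblast (x axis), of each tested gene in the gene lists (y axis), 1 point per gene with the list median marked. Mitosis genes lie at or below -1.19 and members of the thick filament list at or above 1.08, the value of the heat shock gene Hspb1, while the brakes lie on both sides of 0.

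Promoters of risers are shown for comparison with those of mitosis. E box letters are common: 72.3% of all 32851 promoters held CANNTG, 87.9% of the 33 promoters of the thick filament list and 80.9% of the 47 thin filament and Z disc promoters. Among the other searched lists in which most tested genes rose, the share was at or under that of all promoters for excitation-contraction coupling (66.7% of 30 promoters), the myogenic factors (63.3% of 30), fusion and adhesion (57.1% of 28), the synapse (72.2% of 18), protein breakdown (67.6% of 34) and imprinted genes (60.9% of 23). It was 72.7% for the dystrophin complex, 73.1% for glycogen and glycolysis, 76.9% for pyruvate entry and the TCA cycle and 85.7% for the creatine and adenylate list. The cell cycle brakes were at 53.3%. CHR letters were in 9.09% of the thick filament and 10.6% of the thin filament promoters. The windows below are drawn as above, with each CANNTG in capitals. Ankrd2 and Capn3, the muscle calpain, are the list members with the largest fitted rises, leaving aside the histones. Myog and Tnni1 were chosen after values were seen, as the central factor and a troponin gene.
Myog, chr1:134289754-134290028, plus strand: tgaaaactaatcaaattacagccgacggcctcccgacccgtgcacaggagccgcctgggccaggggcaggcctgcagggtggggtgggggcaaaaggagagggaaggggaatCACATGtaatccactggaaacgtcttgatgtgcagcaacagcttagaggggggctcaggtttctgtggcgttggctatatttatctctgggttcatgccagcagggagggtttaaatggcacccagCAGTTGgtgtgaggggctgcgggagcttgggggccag
Tnni1, chr1:135799171-135799445, plus strand: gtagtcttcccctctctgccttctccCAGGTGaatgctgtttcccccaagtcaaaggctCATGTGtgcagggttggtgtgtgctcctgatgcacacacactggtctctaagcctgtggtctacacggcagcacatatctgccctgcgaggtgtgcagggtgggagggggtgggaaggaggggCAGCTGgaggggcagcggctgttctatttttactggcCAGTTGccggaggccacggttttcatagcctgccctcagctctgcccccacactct
Ankrd2, chr19:42035777-42036051, plus strand: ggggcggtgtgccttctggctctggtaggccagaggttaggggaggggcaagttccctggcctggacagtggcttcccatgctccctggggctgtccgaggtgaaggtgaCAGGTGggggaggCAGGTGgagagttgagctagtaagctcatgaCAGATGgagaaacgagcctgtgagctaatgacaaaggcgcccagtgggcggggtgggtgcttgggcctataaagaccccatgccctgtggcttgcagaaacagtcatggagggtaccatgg
Capn3, chr2:120463343-120463617, plus strand: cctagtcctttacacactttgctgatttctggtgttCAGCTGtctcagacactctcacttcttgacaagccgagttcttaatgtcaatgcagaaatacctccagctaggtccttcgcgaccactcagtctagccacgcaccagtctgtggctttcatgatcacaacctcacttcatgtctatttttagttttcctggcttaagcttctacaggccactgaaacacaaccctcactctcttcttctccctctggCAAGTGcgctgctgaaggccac
The Tnni1 window held 4 E boxes, that of Ankrd2 3, and those of Myog and Capn3 2 each. None of the 4 held CHR or CCAAT letters. Tnni1 and Capn3 each have 2 promoters in the table, and 1 is shown.

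Excitation-contraction coupling is the release of calcium from the sarcoplasmic reticulum after a voltage change at the T tubule. Of 39 genes, 38 were tested, 34 rose, 31 of them at least 2-fold, and 3 fell, with a median of 3.53. Thus 89.5% rose and 7.89% fell, against 42.4% and 42.6% of all genes. Ryr1, the calcium release channel, was at 28.8, 33.5 and 35.5 CPM in the myoblast libraries and at 1214, 1349 and 1256 CPM in the differentiated ones, a change of 5.29 ± 0.085. Cacna1s, the voltage sensor that opens it, was at 13.5, 12.6 and 12.8 CPM in myoblasts and 499, 571 and 564 CPM in differentiated myotubes, a change of 5.39 ± 0.062. Calsequestrins, which store calcium, also rose, and the cardiac form was the more abundant: mean TPM went from 44.5 to 1432 for Casq2 and from 4.88 to 119 for Casq1. The pump Atp2a1 rose by 4.83 ± 0.067 and Atp2a2, its slow and cardiac relative, by 1.44 ± 0.043. Scn4a, the adult muscle sodium channel, rose by 5.44 ± 0.12 to 60.1 CPM. Itpr1, a calcium channel of non-muscle reticulum, was at 21.8, 23.9 and 22.1 CPM in myoblasts and 4.46, 4.83 and 5.95 CPM in differentiated myotubes, a change of -2.13 ± 0.092.

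At the neuromuscular synapse, 13 of 16 genes rose and 3 fell, which is 81.25% and 18.75% against 42.4% and 42.6% of all genes. Chrng, the fetal subunit of the acetylcholine receptor, was at 211, 202 and 226 CPM in the myoblast libraries and at 1439.5, 1548 and 1633 CPM in the differentiated ones, a change of 2.86 ± 0.055. Chrne, the adult subunit that replaces it, reached only 0.142, 0.348 and 0.246 CPM and its myoblast level rested on at most 1 count per library. Colq, which anchors acetylcholinesterase, and Erbb3, a neuregulin receptor, rose by 5.05 ± 0.10 and 4.59 ± 0.053. The ligand Nrg1, at 4.54, 5.01 and 5.41 CPM in myoblasts and 0.996, 0.697 and 0.880 CPM in differentiated myotubes, Agrn and Etv5 were the members that fell.

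Of 24 genes of the dystrophin complex and membrane repair, 23 were tested, 17 rose and 6 fell. That is 73.9% and 26.1%, against 42.4% and 42.6% of all genes. Dmd, which encodes dystrophin, was at 5.27, 4.97 and 6.05 CPM in myoblasts and 188, 201 and 196 CPM in differentiated myotubes, a change of 5.16 ± 0.11. Utrn, its relative, rose by 1.44 ± 0.069, and Dag1, the dystroglycan that both bind, by 2.79 ± 0.053. Capn3 was at 1.51, 2.03 and 1.84 CPM in the myoblast libraries and at 169, 185 and 185 CPM in the differentiated ones, a change of 6.65 ± 0.078. Among those that fell were Sgce, a sarcoglycan found outside muscle too, by 1.69 ± 0.074, and the annexins Anxa1 and Anxa2, by 2.42 ± 0.050 and 1.56 ± 0.042.

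Genes of energy metabolism changed in both directions. In glycogen use and glycolysis, 37 of 39 genes were tested, 25 rose and 10 fell, with a median of 0.86. Thus 67.6% rose and 27.0% fell, against 42.4% and 42.6% of all genes. Pygm, the muscle glycogen phosphorylase, was at 25.1, 24.9 and 27.1 CPM in myoblasts and 709, 739.6 and 805 CPM in differentiated myotubes, a change of 4.87 ± 0.066. Ppp1r3a, the muscle subunit that targets phosphatase to glycogen, was at 0.809, 1.04 and 1.04 CPM in myoblasts and 62.8, 63.0 and 65.7 CPM in differentiated myotubes, a change of 6.05 ± 0.097. Slc2a4, the insulin-regulated glucose carrier, rose by 4.89 ± 0.14 and Slc2a1 fell by 0.33 ± 0.062. In the creatine and adenylate list, 11 of 15 tested genes rose (73.3%) and 4 fell (26.7%), against 42.4% and 42.6% of all genes. Mb, which encodes myoglobin, rose by 3.77 ± 0.056, and the synthetic enzymes Gatm and Gamt by 2.61 ± 0.039 and 2.36 ± 0.055.

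In pyruvate entry and the TCA cycle, 22 of 34 genes rose and 9 fell. This is 64.7% and 26.5%, against 42.4% and 42.6% of all genes. By at least 2-fold, 9 of the 34 rose and 3 fell, against 24.2% and 22.1% of all genes. The list's mean share of counts was 0.518% in myoblasts and 0.542% in differentiated myotubes, and small changes are relative to the scaling. Citrate synthase, Cs, did not pass, at 607, 577 and 603 CPM in the myoblast libraries and at 600.0, 593 and 625 CPM in the differentiated ones. The mitochondrial pyruvate carriers Mpc1 and Mpc2 rose by 1.73 ± 0.049 and 1.26 ± 0.081, and Pcx, which makes oxaloacetate from pyruvate, by 2.43 ± 0.055. The kinases that restrain pyruvate dehydrogenase diverged: Pdk1 was at 9.32, 8.51 and 8.49 CPM in myoblasts and 72.1, 73.9 and 71.0 CPM in differentiated myotubes, a change of 3.04 ± 0.071, and Pdk2 rose by 2.16 ± 0.063, while Pdk3 fell by 1.26 ± 0.068 and Pdk4 by 0.59 ± 0.051. RNA encoded by the mitochondrial genome went from 1.61% ± 0.168 (SD, n = 3) of counts in myoblasts to 4.37% ± 0.384 (SD, n = 3) in differentiated myotubes.

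Genes of glutamate metabolism, to which Glud1 belongs, fell more often than they rose. Of 30 genes, 28 were tested, 17 fell and 10 rose, which is 60.7% and 35.7% against 42.6% and 42.4% of all genes. At least 2-fold, 13 fell and 3 rose, and the median was -0.88. Glud1 changed by -0.84 ± 0.040 (adjusted p = 6.86e-17 by edgeR), lower in every differentiated library. Bcat1, the cytosolic transaminase that makes glutamate from branched-chain amino acids, was at 111, 116 and 111 CPM in myoblasts and 6.31, 6.27 and 7.78 CPM in differentiated myotubes, a change of -4.04 ± 0.082. Its mitochondrial relative Bcat2 rose by 1.25 ± 0.055. Slc7a11, the cystine and glutamate exchanger, fell by 3.14 ± 0.12. Glul, which makes glutamine, rose by 0.65 ± 0.047, and Gpt2, the mitochondrial alanine transaminase, was at 84.8, 82.4 and 85.4 CPM in the myoblast libraries and at 176, 179 and 175 CPM in the differentiated ones, a change of 1.07 ± 0.041. Got2, the mitochondrial aspartate transaminase, did not pass, at 266, 259.5 and 274 CPM in myoblasts and 256, 248 and 271 CPM in differentiated myotubes.

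Most genes for making ribosomes fell. Of 40 genes of ribosome biogenesis, 34 fell, 19 of them at least 2-fold, and 3 rose, with a median of -0.90. Shares of 85% and 7.5% compare with 42.6% and 42.4% of all genes. They held 0.828%, 0.834% and 0.812% of the counts in myoblast libraries and 0.303%, 0.295% and 0.299% in differentiated ones. The nucleolar proteins Npm1 and Ncl fell by 2.21 ± 0.044 and 1.92 ± 0.040, Npm1 from 1363, 1349 and 1283 CPM to 301, 277 and 287 CPM. Rrp12 rose by 0.96 ± 0.046 and Bop1 by 0.59 ± 0.046, against the list. Of 85 genes of cytosolic ribosomal proteins, 82 were tested and 81 fell (98.8%, against 42.6% of all genes), with a median of -0.75. Only 12 of these fell at least 2-fold, against 22.1% of all genes. Their share was 7.10%, 6.73% and 7.03% of the counts in myoblast libraries and 3.59%, 3.29% and 3.15% in differentiated ones. Rpl3 had the largest fall, at 1343, 1345 and 1417 CPM in myoblasts and 478, 451 and 467 CPM in differentiated myotubes, and Rpl3l, the muscle-specific relative of Rpl3, was at means of 0.0378 and 0.0815 CPM and did not pass.

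**Figure D4:**
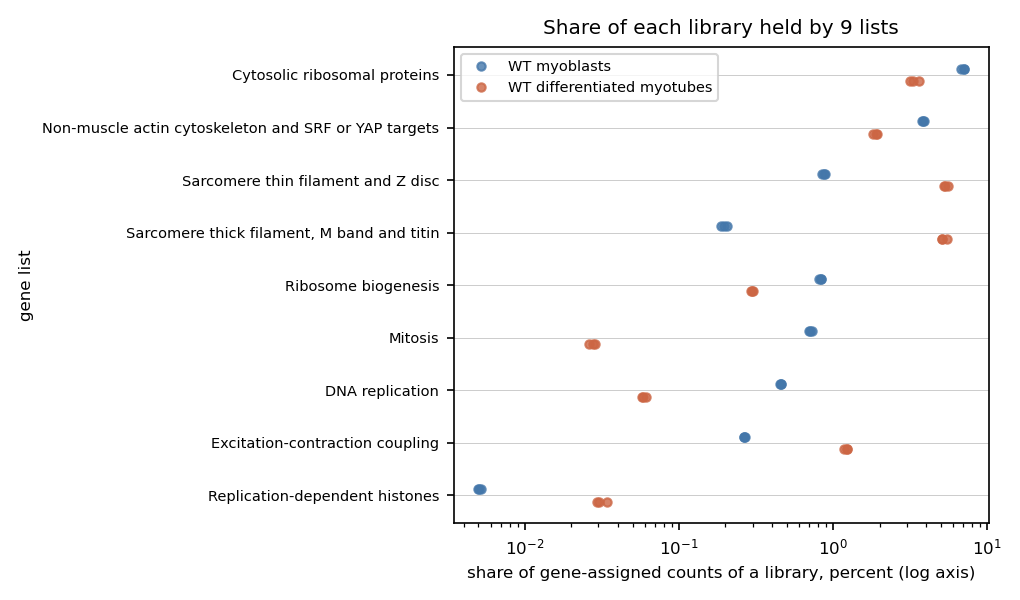
Percent of a library's counts (x axis, log scale) held by gene lists (y axis) in each of the 3 WT myoblast and 3 WT differentiated libraries, 1 point per library. Mitosis genes go from a mean of 0.711% to 0.0274%, the thick filament list from 0.197% to 5.21% and cytosolic ribosomal proteins from 6.95% to 3.34%.

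Extracellular matrix genes diverged. Of 57 genes, 46 were tested, 27 fell and 14 rose, which is 58.7% and 30.4% against 42.6% and 42.4% of all genes. The median was -1.63. Fn1, fibronectin, was at 573, 668 and 686 CPM in the myoblast libraries and at 71.9, 66.0 and 84.2 CPM in the differentiated ones, a change of -3.11 ± 0.083. Tnc, tenascin C, and the basement membrane chains Col4a1 and Lamb1 fell by 4.57 ± 0.071, 2.48 ± 0.057 and 3.68 ± 0.046. Hspg2, which encodes perlecan of the same membrane, rose by 2.06 ± 0.098. Col25a1, a membrane collagen of muscle that motor axons need, was at 6.47, 5.40 and 5.58 CPM in myoblasts and 127, 125 and 131 CPM in differentiated myotubes, a change of 4.45 ± 0.057. Col1a2, a fibrillar chain typical of fibroblasts, was low at both stages, at 3.52, 4.06 and 3.71 CPM in myoblasts and 6.45, 5.96 and 6.76 CPM in differentiated myotubes.

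The general actin cytoskeleton also fell more often than it rose. Of 45 genes of non-muscle actin and SRF or YAP targets, 44 were tested, 29 fell and 12 rose. That is 65.9% and 27.3%, against 42.6% and 42.4% of all genes. The list held 3.83%, 3.74% and 3.86% of the counts in myoblast libraries and 1.91%, 1.81% and 1.88% in differentiated ones. Actb, the cytoplasmic actin often used as a loading control, was at 4739.8, 4528 and 4836 CPM in the myoblast libraries and at 625, 562 and 623 CPM in the differentiated ones, a change of -2.96 ± 0.056. Actg1 fell by 2.76 ± 0.050. Tagln2 was at 686, 686 and 699 CPM in myoblasts and 19.5, 15.4 and 17.4 CPM in differentiated myotubes, a change of -5.31 ± 0.064, and the AP-1 factor Fosl1 fell by 5.29 ± 0.10. Acta2, the smooth muscle actin, rose by 1.42 ± 0.052 to 2718 CPM, and Vcl, vinculin, by 1.25 ± 0.049.

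In several gene families 1 member fell while a related one rose. For 13 pairs of related genes, chosen after values were seen because 1 fell and the other rose, the share of the pair's summed TPM held by the rising gene is given as a description. Cfl2, the muscle cofilin, held 11.8%, 11.6% and 10.9% in myoblasts and 76.8%, 78.3% and 76.4% in differentiated myotubes. Actn2, the Z-disc alpha-actinin, set against Actn4, held 4.01%, 3.70% and 3.99% in myoblasts and 71.9%, 71.9% and 73.0% in differentiated myotubes. Pgam2, the muscle phosphoglycerate mutase, held 7.21%, 7.31% and 8.33% in myoblasts and 84.5%, 84.2% and 84.7% in differentiated myotubes. In each of these the 3 libraries of a stage lay close together and the stages far apart. Rb1 against Rbl1 went from a mean of 50.1% to 98.9%, Ccnd3 against Ccnd1 from 38.4% to 97.4%, and Ezh1 against Ezh2, the catalytic subunits of a repressive histone methylase, from 4.19% to 45.7%. In that last pair Ezh2 changed by -3.36 ± 0.050 and Ezh1 by 1.00 ± 0.066.

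**Figure D5:**
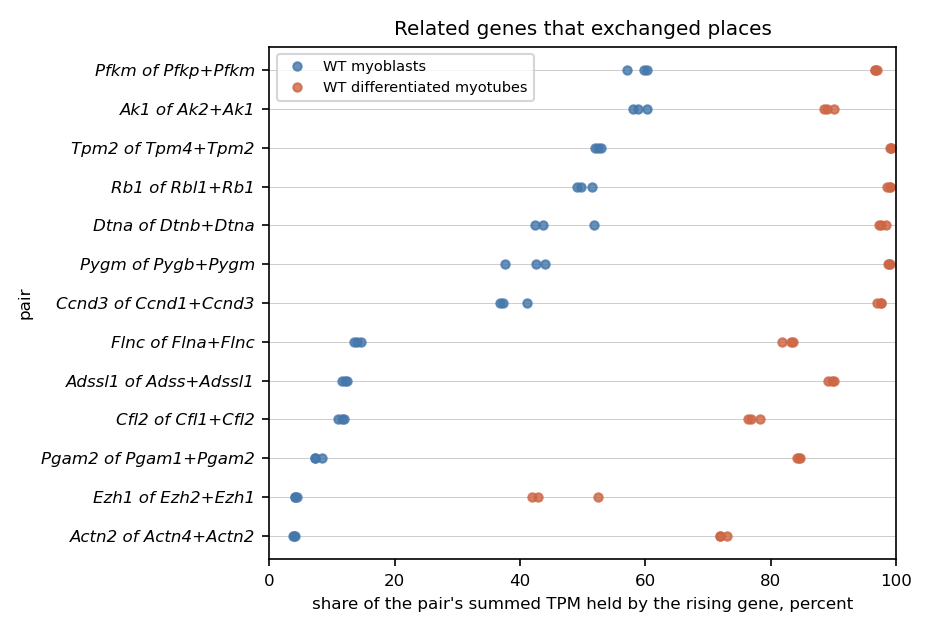
Share of a pair's summed TPM held by the rising gene (x axis, percent) for 13 pairs of related genes (y axis), with 1 point per library. Cfl2 goes from a mean of 11.5% in myoblasts to 77.2% in differentiated myotubes, and Actn2 from 3.90% to 72.3%.

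Of the 44 genes of growth factor, IGF and TGF-beta signalling, 41 were tested, 17 rose and 22 fell, which is 41.5% and 53.7% against 42.4% and 42.6% of all genes, so the genes that follow are described singly. Igf2, a growth factor that promotes differentiation, was at 671, 674 and 729 CPM in myoblasts and 6329, 6598 and 7022 CPM in differentiated myotubes, a change of 3.27 ± 0.069. Mstn, myostatin, which limits muscle growth, was at 5.56, 6.18 and 5.51 CPM in the myoblast libraries and at 213, 210.5 and 202 CPM in the differentiated ones, a change of 5.19 ± 0.059. Fst, follistatin, which binds and blocks myostatin, was at 12.8, 11.5 and 13.0 CPM in myoblasts and 194, 189 and 186 CPM in differentiated myotubes, a change of 3.92 ± 0.049. Ligands of the EGF receptor fell, Ereg by 5.19 ± 0.26, Areg by 4.08 ± 0.15 and Hbegf by 1.72 ± 0.065, and so did the receptor Egfr, by 3.84 ± 0.16. Dusp4, Dusp5 and Dusp6, phosphatases induced by ERK signalling, fell by 4.17, 4.11 and 2.22.

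Imprinted genes, expressed from 1 parental copy, and muscle non-coding RNAs included a gene with one of the largest shares of counts. Of 24 listed, 21 were found by symbol and 17 tested, 12 rose and 5 fell. That is 70.6% and 29.4%, against 42.4% and 42.6% of all genes. H19, the non-coding neighbour of Igf2, held 1.03% of counts in myoblasts and 2.75% in differentiated myotubes, second to Eef1a1, a translation factor at 1.30%, in myoblasts and first in differentiated myotubes. H19 was found at 8627, 8759.8 and 9374 CPM in myoblasts and 27405, 27413 and 30324 CPM in differentiated myotubes, a change of 1.67 ± 0.059. Meg3 and Rian, non-coding RNAs of another imprinted cluster, rose by 4.99 ± 0.14 and 2.34 ± 0.21, while Dlk1 of that cluster was below the filter on low counts. Zdbf2 was at 9.28, 9.03 and 9.29 CPM in the myoblast libraries and at 312, 343 and 323 CPM in the differentiated ones. Plagl1, a zinc finger factor of the imprinted network, was at 931, 1016 and 985 CPM in myoblasts and 135, 117 and 123 CPM in differentiated myotubes, a change of -2.97 ± 0.053, and Mest fell by 3.07 ± 0.055.

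Of 25 regulators of splicing, all tested, 11 rose and 13 fell, shares of 44.0% and 52.0% against 42.4% and 42.6% of all genes. Rbfox1 and Rbm24, which promote muscle exons, rose by 4.19 ± 0.094 and 2.98 ± 0.045, Rbm24 from 60.3, 60.8 and 63.0 CPM to 492, 489 and 476 CPM. Ptbp1, which represses muscle and neural exons, was at 441, 434 and 460.0 CPM in myoblasts and 82.9, 90.3 and 84.9 CPM in differentiated myotubes, a change of -2.37 ± 0.047. Among 40 chromatin regulators, all tested, 13 rose and 25 fell, which is 32.5% and 62.5% against 42.4% and 42.6% of all genes. Hells and Hmgb2, both linked to dividing cells, fell by 5.56 ± 0.10 and 5.31 ± 0.067, and Lmnb1, a nuclear lamin, by 3.31 ± 0.065. Hdac9 and Hdac11 rose by 3.50 ± 0.090 and 2.96 ± 0.076, while Hdac1 fell by 1.26 ± 0.049. In autophagy and protein breakdown, 23 of 34 tested genes rose and 8 fell. Asb2, a muscle ubiquitin ligase subunit, rose by 4.67 ± 0.063, Map1lc3a and Bnip3 of autophagy by 2.38 ± 0.081 and 2.51 ± 0.058, and Fbxo32, the atrophy ligase atrogin-1, by 1.50 ± 0.065.

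The largest fitted changes over all genes, list members included, were chosen by rule, among called genes with a gene name (not a clone or model name, nor a pseudogene) whose groups did not overlap and whose higher mean reached 5 CPM. Of the 10 largest rises, the 9 reported are Sh2d4b, Mfap4, Adamtsl2, Hephl1, Ankrd2, Capn3, Pkhd1, Ptgds and Myh8. Adamtsl2, a secreted microfibril protein, was at 0.281, 0.173 and 0.201 CPM in the myoblast libraries and at 42.3, 51.3 and 50.6 CPM in the differentiated ones, a change of 7.73 ± 0.16. Pkhd1, which encodes the ciliary protein fibrocystin, was at 0.633, 0.519 and 0.802 CPM in myoblasts and 61.5, 74.8 and 64.2 CPM in differentiated myotubes, a change of 6.65 ± 0.16. Sh2d4b, Mfap4 and Hephl1 reached 9.10, 12.4 and 12.6 CPM in mean, from at most 3 counts in any myoblast library, and no fold is given for them.

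Of the 10 largest falls, the 9 reported are Ccn3, Cd300ld3, Cdca7, Cd53, Lce1g, Rgs5, Fam111a, Fam131b and Eps8. Eps8, which caps actin filaments downstream of growth factor receptors, was at 105, 109 and 103 CPM in myoblasts and 0.949, 0.610 and 0.986 CPM in differentiated myotubes, a change of -6.94 ± 0.097. Fam111a, a protease that acts at replication forks, was at 97.1, 104 and 97.9 CPM in the myoblast libraries and at 0.569, 0.522 and 1.02 CPM in the differentiated ones, a change of -7.08 ± 0.091. Cdca7, a gene of dividing cells, went from a mean of 33.5 to 0.205 CPM. Ccn3 and Fam131b had at most 3 counts in any differentiated library, against means of 18.9 and 15.7 CPM in myoblasts, and no fold is given for them.

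Markers of other cell types were checked beside these results. The summed level of 6 myogenic markers was 1904 to 2068 CPM in myoblasts and 6788 to 7372 CPM in differentiated myotubes. The sum of 8 markers of fibroblasts and fibro-adipogenic cells was 8.73 to 9.63 CPM in myoblasts and 1.61 to 1.99 CPM in differentiated myotubes, with Lum and Dpt at 0 in all 6 libraries. Endothelial markers summed to at most 1.25 CPM and leukocyte markers to at most 1.87 CPM in any library, with Tyrobp at 0 throughout, and those of adipocytes and red blood cells to at most 0.176 and 0.218 CPM. Schwann cell markers summed to 0.778 to 2.96 CPM. The list of smooth muscle and pericytes was the exception, at 54.2 to 61.6 CPM in myoblasts and 86.7 to 96.7 CPM in differentiated myotubes. Within it Rgs5 was at 38.6, 36.6 and 40.8 CPM in myoblasts and 0.237, 0.392 and 0.176 CPM in differentiated myotubes. Abcc9, a potassium channel subunit also found in muscle, was at 2.53, 1.94 and 2.37 CPM in myoblasts and 71.5, 74.1 and 81.4 CPM in differentiated myotubes. Notch3 was present at both stages, at 15.2, 15.6 and 18.2 CPM in myoblasts and 14.4, 13.5 and 14.5 CPM in differentiated myotubes. The defining gene Myh11 was at means of 0.0995 and 0.549 CPM, and Kcnj8 at 0.0340 and 0 CPM. Whether other cell types had a part in the matrix or extreme changes was not tested.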

How the data were processed

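Messenger RNA was measured in cultured primary mouse myoblasts, with RNA prepared by an RNeasy plus micro kit and libraries by an Illumina TruSeq mRNA kit, per the labels' protocols. The submitters' processing notes list bcl2fastq 2.20, fastp 0.20.0, kallisto 0.46.1, edgeR 3.36 and build GRCm38.p6, without role or order. The authors deposited, per the file headers, an estimated count and a TPM value for each transcript, with a length and an effective length. Transcripts were assigned to genes with GENCODE M21 (GRCm38), and 121018 of 121843 matched. The unmatched ones took up 0.255% to 0.507% of a library's counts in the 6 libraries. Estimated counts were summed per gene and rounded. TPM values were summed per gene and used to compare levels between genes, also side by side at the 2 stages and as shares of a pair, and in no test. All 19 libraries, in 6 groups, entered 1 edgeR 4.0.16 quasi-likelihood fit in R 4.3.3 with TMM scaling and filterByExpr. The threshold was an adjusted p under 0.05, and SE is the absolute log2 change over the square root of F. The common biological coefficient of variation was 4.03%. Replicate libraries differed by more than sampling noise, since chi-square divided by its degrees of freedom was 3.51 to 7.66. Counting limits cover counting error only.

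Members, gene lists and tests were chosen with earlier results of these data known. Genes named were members of those lists (largest changes, highest levels and members against the list), the 10 largest rises and falls, the 5 most abundant at each stage, and Glud1. Some genes that met these rules are not reported here. Others named, such as further members described by their role, were chosen after values were seen. Of the promoters of the 2 largest risers and fallers among list members, Twist2 was passed over, being under 1 CPM, as was the histone Hist1h2br, and Nuf2 was not printed. The fit was also run on simulated data in which few genes changed. That setting cannot test the scaling where most genes change, as here. Alternatives were other scalings, tests and filters, an effective-length offset, the 6 libraries alone with and without a replicate block, and leaving out each library.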

Additional observations from a re-analysis of the deposited data

Results flagged for a closer look

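Of the 18 genes reported among the largest changes, 5 changed by a different amount in the libraries with the Glud1-deficient label. This is by the test of the difference itself (edgeR interaction contrast, adjusted over all genes, 3 and 2 libraries with the Glud1-deficient label). Of all 15123 genes tested, 2890 (19.1%) passed the same test. Values are the change under the Glud1-deficient label minus that under the WT label, on the log2 scale. They were -1.67 for Eps8 (adjusted p = 0.00479), which fell, and 0.71 for Capn3 (adjusted p = 0.00456) and 1.28 for Pkhd1 (adjusted p = 0.0499), which rose. In these 3 the change was larger under the Glud1-deficient label, and that of Pkhd1 lay close to the threshold. Eps8 held 14 to 28 counts in the WT differentiated libraries and 4 to 6 in those with the Glud1-deficient label. For Cd300ld3 and Fam111a the size of the difference is not known. The 2 differentiated libraries with the Glud1-deficient label held 0 counts each of Cd300ld3 and 2 each of Fam111a, against 2 to 8 and 12 to 29 in the WT ones. Their fitted values, -4.67 (adjusted p = 0.0492) and -2.83 (adjusted p = 0.000102), depend on the prior count and are neither a size nor a bound.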

How the results depend on the processing

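The count of genes called, 12852 here, was 12467 to 12613 when each of the 6 libraries was left out in turn, with 3518 to 3619 genes at least 2-fold higher and 3284 to 3335 at least 2-fold lower. It was 12593 by DESeq2, 12046 with the effective-length offset, 11001 of 12384 genes with a mean CPM of at least 1, and 14066 of 26257 without a filter. A test against a 2-fold change called 3060 genes higher and 2845 lower. The labels state no pairing by replicate number. Between the stages, deviations of libraries with the same number correlated at 0.025 to 0.039, and those with different numbers at -0.028 to -0.0046. These values are small, and whether the numbers mark pairs is not known. Each library correlated best with its own number. The 6 libraries alone gave 12085 calls of 13945 genes, and 12154 with the replicate block. Library-size scaling, with 40.4% of calls higher against 49.9%, turned the median of the cell cycle brakes to -0.044, Myod1 to -0.014 and Cs to -0.23. Cs turned also without a filter, to -0.041, and Got2 with a mean CPM of at least 1, to 0.031. Without mitochondrially encoded genes, the difference in share of counts moved from -0.683 to -0.694 percentage points for mitosis, from -0.398 to -0.403 for DNA replication, from 4.52 to 4.75 for the thin filament and from 5.01 to 5.24 for the thick filament, with each direction kept. Without 10 chaperones, assembly factors and ubiquitin ligases, left out after seeing the data, that of the thick filament list was 4.82. Genes with 3 counts or fewer in a group are limited by depth. The cause of these differences was not tested.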
